A study of Mus musculus with 6 samples.

Results

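The insulin-like growth factor (IGF) axis was examined in RNA sequencing data from osteoblasts treated with metformin, through 10 genes of the 54532 in the deposited table. These were the pappalysins Pappa and Pappa2, the ligands Igf1 and Igf2, the receptor Igf1r and the binding proteins Igfbp2, Igfbp3, Igfbp4, Igfbp5 and Igfbp6, and their rows were found by gene name. The 10 genes were chosen from the values of the comparison described here, so their differences between the groups are given as a description with no test. All 6 libraries came from MC3T3-E1, a mouse calvarial pre-osteoblast cell line, which is 1 established line, so animals do not differ between samples. The control group had 3 samples in osteogenic medium, and the metformin group had 3 samples in the same medium with metformin added. In the study's text the metformin dose is 0.2 mM and the culture time is 3 days, and the sample labels give neither. The medium of both groups held the osteogenic additives β-glycerophosphate, ascorbic acid and dexamethasone, a glucocorticoid.

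IGF1 and IGF2 are secreted growth factors that signal through the IGF1 receptor, a tyrosine kinase that feeds the PI3K/AKT pathway, and IGFs are abundant growth factors of bone matrix. In the fluid around cells most IGF is held by binding proteins, which keep it from the receptor. Pappalysins are secreted metalloproteinases that cut some of these binding proteins and release the IGF: PAPP-A cuts IGFBP2, IGFBP4 and IGFBP5, and PAPP-A2 cuts IGFBP3 and IGFBP5. RNA sequencing measures the transcripts of these genes, not the proteins, their secretion or the cleavage.

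The values are in fragments per kilobase of gene length and per size of the library (FPKM), which can be compared between genes as a level per length. The reads behind each value could be recovered, and they summed to between 18399861 and 20652437 per control library and between 19256672 and 22111790 per metformin library. The first control library stood apart from the other two. Across the 12681 genes whose mean reached 0.5 FPKM, the limit for testing, its Pearson correlation with control libraries 2 and 3 was 0.960 and 0.952, against 0.988 between those libraries, and its deviation from them followed gene GC content with a Spearman correlation of -0.668 across 12663 genes. These correlations are across genes, which are not independent replicates. The log2 differences of the genes described singly below are therefore given without this library as well. The means, SDs and ratios of means include it. All 9 osteoblast markers examined (Runx2, Sp7, Alpl, Col1a1, Col1a2, Bglap, Ibsp, Spp1 and Sparc) had a mean over this limit, as their label would have it. They did not move together: in 3 of the 9 (Sp7, Col1a1 and Col1a2) every metformin library lay above every control library, in 3 (Runx2, Ibsp and Spp1) below, and the other 3 overlapped. Their summed level was 11403 to 13402 FPKM in the control libraries and 8130 to 8622 FPKM with metformin, and without Spp1, the most abundant of them, it was 4269 to 5215 FPKM and 5426 to 5895 FPKM. The lists of adipocyte, chondrocyte, skeletal muscle, macrophage and endothelial markers had 2, 3, 1, 1 and 1 of 5 genes at that level. The summed levels in control and metformin libraries were 7.78 to 12.2 and 8.51 to 9.56 FPKM for adipocyte markers and 27.4 to 41.5 and 29.4 to 31.9 FPKM for chondrocyte markers. They were 1.20 to 2.02 and 2.33 to 2.80 FPKM for muscle markers, with Myod1 and Myog at 0 reads, 1.97 to 2.18 and 1.12 to 1.35 FPKM for macrophage markers, with Itgam at 0 reads, and 0.439 to 0.726 and 0.723 to 1.10 FPKM for endothelial markers. The muscle and macrophage sums did not overlap between the groups and came mostly from Des and Cd68, while the direction of the osteoblast sum turned with Spp1. The part of these markers in the values below was not tested. In these bulk samples fewer cells of a type and less RNA per cell cannot be told apart.

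Sequences before a RefSeq start of Pappa2 and of the 3 binding protein genes with the highest levels are shown first. These genes had the 4 highest levels of the axis in the metformin libraries. Each begins 250 bases before the gene's RefSeq start (GRCm38.p6) and is read 5′ to 3′ on the strand of the gene. It ends at that start, or earlier where an annotated exon of the gene in GENCODE M21 begins. The Pappa2 stretch is 58 bases at chr1:158958368-158958425 on the minus strand. It lies inside the GENCODE gene, whose 5′ end on this strand is at 158980490. It stops at an exon before reaching the RefSeq start at 158958175. The stretch is therefore not the sequence upstream of the whole gene, and whether it acts as a promoter was not tested. The Igfbp4 stretch is 250 bases at chr11:99040994-99041243 on the plus strand. For Igfbp5 it is 231 bases at chr1:72874885-72875115 on the minus strand, and for Igfbp6 it is 250 bases at chr15:102143936-102144185 on the plus strand. Capitals mark the letters of a TATA box (TATAAA) or a CCAAT box (CCAAT), on either strand.
Pappa2: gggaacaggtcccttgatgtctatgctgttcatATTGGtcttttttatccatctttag
Igfbp4: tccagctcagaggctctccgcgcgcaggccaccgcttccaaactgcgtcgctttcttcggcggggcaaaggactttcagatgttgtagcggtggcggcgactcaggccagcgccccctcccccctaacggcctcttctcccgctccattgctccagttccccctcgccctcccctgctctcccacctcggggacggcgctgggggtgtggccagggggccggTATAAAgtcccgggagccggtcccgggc
Igfbp5: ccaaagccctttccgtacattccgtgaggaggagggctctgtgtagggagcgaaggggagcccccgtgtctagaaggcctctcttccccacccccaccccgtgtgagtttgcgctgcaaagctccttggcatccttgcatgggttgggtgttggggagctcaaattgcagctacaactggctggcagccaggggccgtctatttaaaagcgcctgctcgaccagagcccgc
Igfbp6: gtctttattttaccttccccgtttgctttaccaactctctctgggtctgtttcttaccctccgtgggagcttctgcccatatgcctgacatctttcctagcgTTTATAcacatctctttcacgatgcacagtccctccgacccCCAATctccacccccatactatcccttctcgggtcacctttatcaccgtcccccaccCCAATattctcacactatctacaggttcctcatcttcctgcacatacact
The Igfbp4 stretch was rich in G and C, at 69.2%, and held TATAAA from 28 bases before the start. The Igfbp6 stretch held the TATA box letters on the opposite strand from 148 bases before its start, and CCAAT from 107 and from 50 bases before it. The Pappa2 stretch, at 39.7% G and C, held CCAAT on the opposite strand from 217 bases before the RefSeq start. None of the searched letters lay in the Igfbp5 stretch.

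The letters of several motifs were searched on both strands in the 300-base windows (250 bases before and 50 after each RefSeq start) of the members. Such a window was found for 9 of the 10 genes, and Pappa had none in the table. The window of Pappa2 lies inside the GENCODE gene, not at its 5′ end. Some genes have several starts, so these 9 genes had 13 windows. TATAAA was in 2 of the 13 windows and in 13.6% of all 32851 windows, the GC box GGGCGG in 4 windows and 35.7% of all, and CCAAT in 4 windows and 37.4% of all. The AP-1 site TGANTCA was in 2 windows, 1 of Igf1 and 1 of Igfbp2, and in 7.81% of all, and the cyclic AMP response element TGACGTCA was in 0 of the 13 and in 1.79% of all. Of the genes with higher levels under metformin, Pappa2 and Igf1 held CCAAT, Igf1 also held AP-1 letters, and Igfbp2 held AP-1 and GC box letters. Of those with lower levels, Igfbp4 and Igfbp6 held TATAAA, Igfbp6 also held CCAAT, and Igfbp5 held none of the letters. Whether the letters go with the direction was not tested.

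Across the table, 13.2% of the tested genes were higher and 9.28% were lower with metformin at an adjusted p under 0.05 (limma with an intensity trend on log2(FPKM + 1), Benjamini-Hochberg adjustment). In 23.6% of the tested genes every metformin library lay above every control library, and in 20.5% every metformin library lay below. The calls split into 1670 higher and 1177 lower genes, and after a correction for GC content into 2062 higher and 2433 lower. Of the 10 axis genes, 7 passed the limit on mean FPKM, 1 (Igfbp2) had reads but fell under it, and 2 (Igf2 and Igfbp3) had 0 reads in every library. Among the 7 that passed, 3 had every metformin library above every control library, 3 had every metformin library below, and Igf1r overlapped. At the threshold used for all genes, 2 of these (Pappa2 and Igf1) counted as higher and 3 (Igfbp4, Igfbp5 and Igfbp6) as lower, and nothing is read from these counts since the comparison chose the genes. Their median log2 difference was 0.036, beside 0.0053 over all tested genes.

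**Figure D1:**
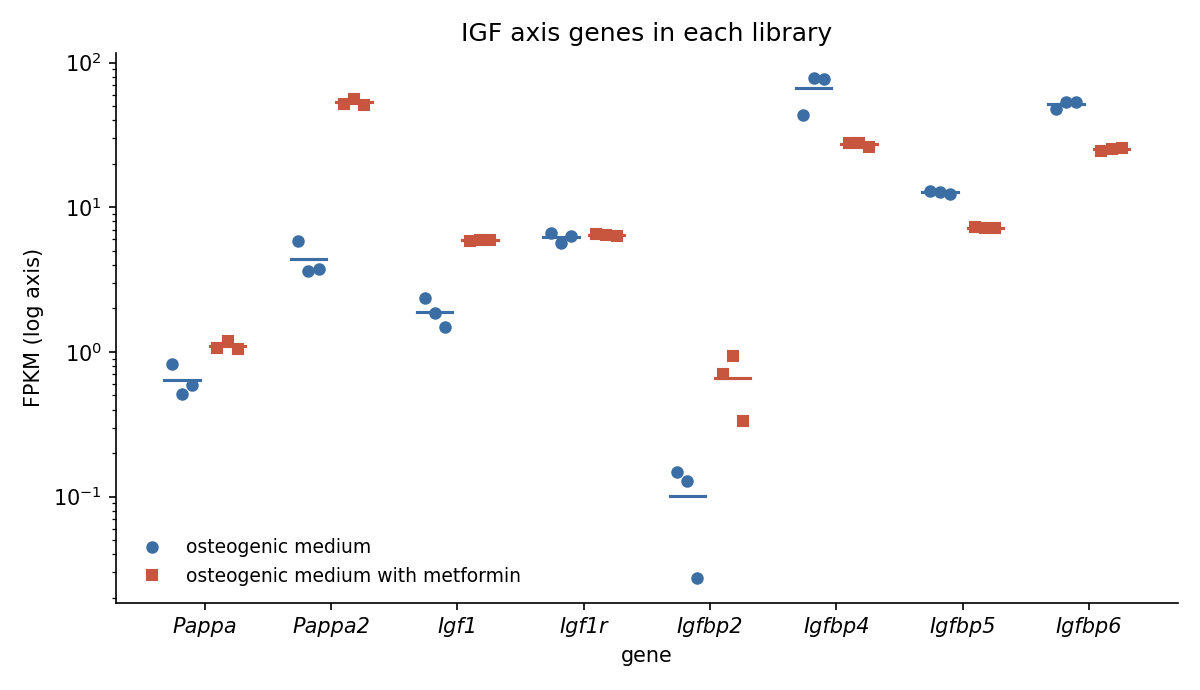
Level of the 8 IGF axis genes with reads in each of the 6 libraries, in FPKM on a log axis, with circles for osteogenic medium, squares for osteogenic medium with metformin, libraries 1 to 3 from left to right, and a line at each group's mean. Pappa2 went from 3.61 to 5.82 FPKM in the control libraries to 51.2 to 55.8 FPKM with metformin, Igfbp4, Igfbp5 and Igfbp6 sat lower with metformin, and the Igf1r points overlapped.

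Pappa2 had the widest gap between the groups of the 10 genes. Pappa2 lies at chr1:158711727-158980490 on the minus strand. Its level was 5.82, 3.61 and 3.76 FPKM in control libraries 1, 2 and 3 and 52.1, 55.8 and 51.2 FPKM in metformin libraries 1, 2 and 3. The 3 metformin libraries lay close together and far above the 3 controls, of which the first was the highest. The means were 4.40 ± 1.24 FPKM (SD, n = 3) and 53.1 ± 2.45 FPKM (SD, n = 3), a ratio of 12.1, and the log2 difference was 3.35 (SE 0.16) on the log2(FPKM + 1) scale, on which the differences of low genes are understated. Without the first control library it was 3.53. The values rest on 761 to 1094 reads per control library and 10269 to 12527 reads per metformin library. In the ranking of all tested genes by mean level, Pappa2 stood above 38.5% of genes in the controls and above 93.3% with metformin. An annotated gene on the same strand, 1600012P17Rik, overlaps it and had 0 reads in each control library and 3, 4 and 1 reads in the metformin libraries.

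Pappa, which encodes PAPP-A, the other pappalysin, was at a far lower level. Pappa lies at chr4:65124174-65357509 on the plus strand. Its level was 0.819, 0.510 and 0.591 FPKM in the control libraries and 1.06, 1.20 and 1.05 FPKM in the metformin libraries. All 3 metformin libraries were above all 3 controls, but the gap between the highest control and the lowest metformin library was small. The mean was 0.640 ± 0.160 FPKM (SD, n = 3) in the controls and 1.10 ± 0.083 FPKM (SD, n = 3) with metformin, a ratio of 1.72 on 118 to 165 and 225 to 288 reads. The log2 difference was 0.36 (SE 0.11), or 0.44 without the first control library, and with a pseudocount of 0.1 in place of 1 it was 0.72. Within each library Pappa2 exceeded Pappa by 7.10, 7.07 and 6.37 times in the controls and by 49.0, 46.6 and 48.9 times with metformin. Pappa2 thus held 86.4 to 87.7% of the summed pappalysin level in the control libraries and 97.9 to 98.0% in the metformin libraries.

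Of the ligands only Igf1 had reads. Igf1 lies at chr10:87858265-87937042 on the plus strand. Its level was 2.34, 1.85 and 1.48 FPKM in the control libraries and 5.85, 5.98 and 5.93 FPKM in the metformin libraries. The controls spread by more than the metformin libraries, and the groups did not overlap. The mean was 1.89 ± 0.431 FPKM (SD, n = 3) in the controls and 5.92 ± 0.066 FPKM (SD, n = 3) with metformin, a ratio of 3.12 on 289 to 424 and 1144 to 1290 reads. The log2 difference was 1.27 (SE 0.12), and it was 1.38 without the first control library. The antisense gene Igf1os, which overlaps Igf1, had 0 reads in the controls and 1 read in each metformin library. Whether the reads were counted by strand is not given in the sources used here, and without strand the reads of an antisense pair cannot be told apart.

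Igf2, the fetal growth factor of the axis, had 0 reads in all 6 libraries. Igf2 lies at chr7:142650766-142666816 on the minus strand. A count of 0 allows a level of up to 3 reads, which is 0.0241 to 0.0287 FPKM for Igf2 in these libraries. Another gene on the same strand, Gm49394, covers nearly the same span, shares near-identical transcripts with Igf2 and also had 0 reads in all 6 libraries. How reads that lie in both genes were counted is not given in the sources used here, so the 0 of Igf2 is uncertain as a level.

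Igf1r, the receptor for both ligands, was at the same order of level in both groups. Igf1r lies at chr7:67952827-68233668 on the plus strand. Its level was 6.65, 5.71 and 6.33 FPKM in the control libraries and 6.50, 6.41 and 6.29 FPKM in the metformin libraries. The control libraries held both the highest and the lowest value, and the groups overlapped. The mean was 6.23 ± 0.480 FPKM (SD, n = 3) and 6.40 ± 0.103 FPKM (SD, n = 3), and the log2 difference of 0.036 was smaller than its SE of 0.082. It turned to -0.025 after a correction for GC content, was 0.078 without the first control library and ranged from -0.017 to 0.078 as each library was left out in turn. The level of Igf1 relative to Igf1r in the same library was 0.353, 0.325 and 0.234 in the controls and 0.899, 0.933 and 0.942 with metformin. Per length, ligand transcripts therefore came close to receptor transcripts in the metformin libraries and stayed below them in all 6.

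Among the binding proteins, Igfbp4, Igfbp5 and Igfbp6 were lower in every metformin library than in any control library. Igfbp4, at chr11:99041244-99054392 on the plus strand, encodes a binding protein known as an inhibitor of IGF action in bone cells and as the main substrate of PAPP-A. Its level was 43.6, 78.3 and 77.5 FPKM in the control libraries and 27.9, 27.8 and 26.1 FPKM in the metformin libraries. The first control library stood well below the other two, at 0.560 of their mean, and still above all metformin libraries. The mean was 66.5 ± 19.8 FPKM (SD, n = 3) in the controls and 27.3 ± 1.01 FPKM (SD, n = 3) with metformin, a ratio of 2.44 of control over metformin. The log2 difference was -1.21 (SE 0.23), and -1.48 without the first control library.

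Igfbp6 encodes a binding protein with a preference for IGF2 over IGF1. Igfbp6 lies at chr15:102144362-102149511 on the plus strand. Its level was 47.9, 53.2 and 53.4 FPKM in the control libraries and 24.5, 25.3 and 25.7 FPKM in the metformin libraries. The 6 values formed a tight high group and a tight low group. The mean was 51.5 ± 3.11 FPKM (SD, n = 3) and 25.2 ± 0.611 FPKM (SD, n = 3), a ratio of 2.04 of control over metformin, and the log2 difference was -1.0 (SE 0.084), or -1.05 without the first control library.

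Igfbp5, a binding protein that attaches to bone matrix and is a substrate of both pappalysins, lies at chr1:72857932-72874884 on the minus strand. Its level was 13.0, 12.7 and 12.4 FPKM in the control libraries and 7.27, 7.15 and 7.21 FPKM in the metformin libraries. It was the most even of the axis genes within each group. The mean was 12.7 ± 0.304 FPKM (SD, n = 3) and 7.21 ± 0.057 FPKM (SD, n = 3), a ratio of 1.76 of control over metformin, and the log2 difference was -0.74 (SE 0.071), or -0.72 without the first control library.

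Igfbp2 lies tail to tail with Igfbp5 on the same chromosome, at chr1:72824503-72852474 on the plus strand, with 5457 bases between the 2 gene ends. Its level was 0.148, 0.129 and 0.0275 FPKM in the control libraries and 0.709, 0.944 and 0.334 FPKM in the metformin libraries, from 5, 5 and 1 reads and 26, 38 and 12 reads. Each metformin library was above each control, in the opposite direction to its neighbour Igfbp5. At these counts the ratio of means of 6.52 is poorly determined, and the gene was under the limit for the test. Igfbp3, at chr11:7206086-7213923 on the minus strand, encodes the main carrier of IGF in blood and a substrate of PAPP-A2, and it had 0 reads in all 6 libraries, which allows up to 0.0440 to 0.0525 FPKM.

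**Figure D2:**
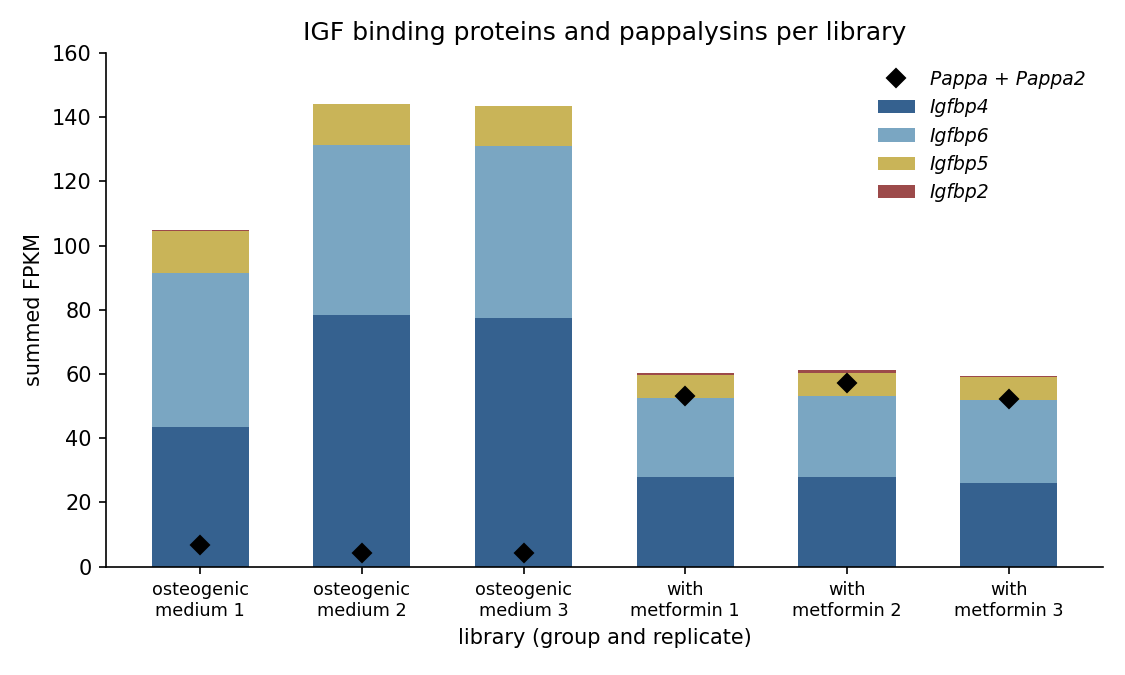
Summed level of the binding protein genes of the axis, without Igfbp7, in each library in FPKM, as bars stacked by gene from 0. A diamond marks the summed level of Pappa and Pappa2. The bars reach 105, 144 and 143 FPKM in the control libraries and 59.3 to 61.2 FPKM with metformin, and the diamonds go from 4.12 to 6.64 FPKM to 52.3 to 57.0 FPKM.

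The 5 binding protein genes together reached 105, 144 and 143 FPKM in the control libraries and 60.4, 61.2 and 59.3 FPKM in the metformin libraries. This sum and its ratios leave out the related gene Igfbp7, described below, which went the other way. Igfbp7 had 102.5 to 134.7 FPKM in the controls and 196.6 to 213.9 FPKM with metformin, so the fall holds only for the sum of these 5 genes. Within that sum Igfbp4, Igfbp5 and Igfbp6 were lower, Igfbp2 was higher and Igfbp3 was without reads. In the sum of the 5 genes the first control library was again the lowest of its group and above all metformin libraries. The mean sum was 131 ± 22.6 FPKM (SD, n = 3) in the controls and 60.3 ± 0.949 FPKM (SD, n = 3) with metformin. Igfbp4 was 41.7, 54.3 and 54.1% of it in the controls and 46.2, 45.4 and 44.0% with metformin. Igfbp6 was 45.8, 36.9 and 37.3% in the controls and 40.6, 41.4 and 43.3% with metformin. For both genes the metformin libraries lay within the range of the controls, and the first control library set one end of that range. Against control libraries 2 and 3 alone, the share of Igfbp4 was lower and that of Igfbp6 higher in all 3 metformin libraries. Relative to Igf1 in the same library, the binding protein sum was 44.7, 77.8 and 96.6 times as high in the controls and 10.3, 10.2 and 10.01 times as high with metformin. Pappa2 relative to Igfbp4 was 0.133, 0.0461 and 0.0485 in the controls and 1.87, 2.01 and 1.96 with metformin. The order of Pappa2 and Igfbp4 within a library was thus turned around in all 3 metformin libraries. IGFBP4 is not among the substrates of PAPP-A2 named above. Relative to Igfbp5, whose product PAPP-A2 cuts, Pappa2 was 0.447, 0.285 and 0.303 in the controls and 7.18, 7.81 and 7.11 with metformin.

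The order of the mean levels in the controls, from the highest, was Igfbp4, Igfbp6, Igfbp5, Igf1r, Pappa2, Igf1, Pappa and Igfbp2. In that order the ranges of Igfbp4 and Igfbp6 overlapped, as did those of Igf1r and Pappa2, and the other neighbours did not. With metformin the order was Pappa2, Igfbp4, Igfbp6, Igfbp5, Igf1r, Igf1, Pappa and Igfbp2, and no neighbours overlapped. Pappa2 thus moved from the fifth place to the first, and the other 7 genes kept their order relative to each other.

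**Figure D3:**
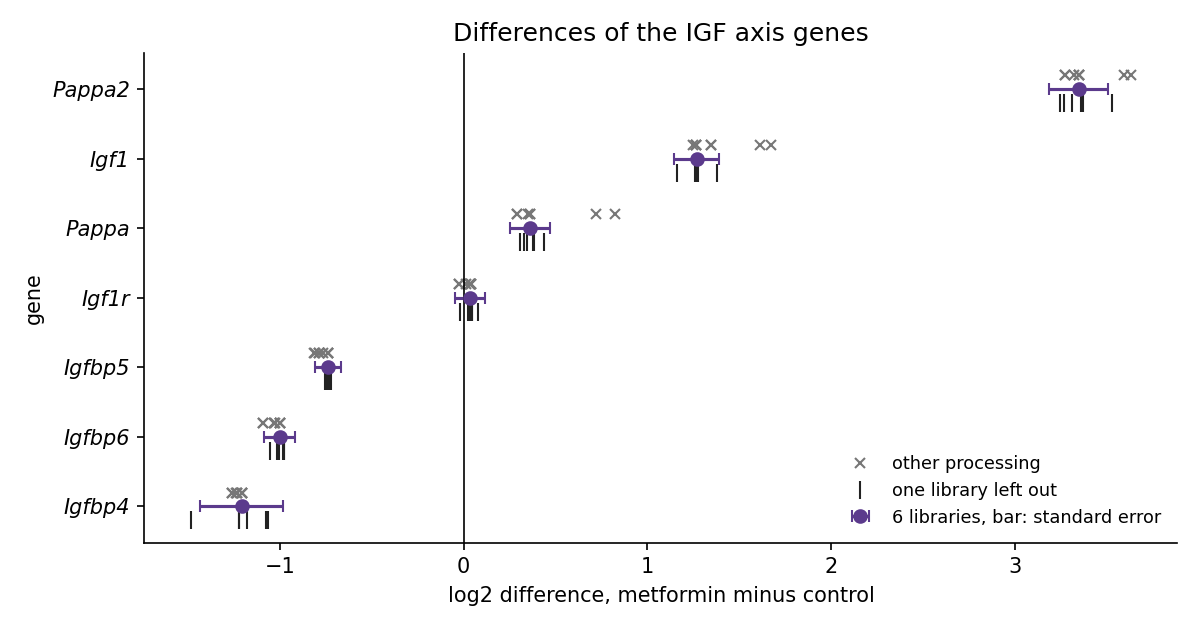
Log2 difference, metformin minus control, of the 7 axis genes whose mean reached 0.5 FPKM, with a bar of 1 standard error, a tick for each fit with 1 library left out and a cross for each other way of processing. Pappa2 stayed between 3.25 and 3.63, Igfbp4 between -1.48 and -1.07, and Igf1r lay on both sides of 0.

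Over all ways of processing the values, the log2 difference of Pappa2 ranged from 3.25 to 3.63, that of Igf1 from 1.16 to 1.67 and that of Pappa from 0.29 to 0.82. It ranged from -1.48 to -1.07 for Igfbp4, from -0.82 to -0.72 for Igfbp5 and from -1.09 to -0.98 for Igfbp6. Of the 7 genes, Igf1r was the only one to change sign, with a negative value in 3 of 15 fits. The first control library lay toward the metformin libraries for Pappa, Pappa2, Igf1, Igfbp4 and Igfbp6, and its level over the mean of the other two controls was 1.49 for Pappa, 1.58 for Pappa2 and 1.40 for Igf1.

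Another 32 genes of the pathway were listed by role, with earlier results of these data known. They were tested with the whole table, and 22 of them passed the limit on mean FPKM. Of the 22, Igfals passed it only through its level in the controls, so it is described without a test. Of the other 21, 4 were higher with metformin (Igfbp7, Adam9, Adam12 and Grb10) and 2 were lower (Htra1 and Ghr) at an adjusted p under 0.05 by limma. That is 19.05% higher and 9.52% lower, beside 13.2% and 9.28% of all tested genes. The median log2 difference over the 21 was -0.043. Every metformin library lay above every control library in 4 of them (19.05%, beside 23.6% of all tested genes) and below in 8 (38.1%, beside 20.5%). With Igfals counted, the lower genes were 3 of 22 (13.6%). On that count they were 5 (22.7%) by voom on the recovered reads, beside 9.75% of all tested genes. After a GC correction they were 8 (36.4%) beside 19.2%, and without the first control library 6 (27.3%) beside 20.4%. Igfals was among the lower genes in each of these fits, so these shares hold a gene that is not a valid test. They show only how far the count moves with the processing.

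**Figure D4:**
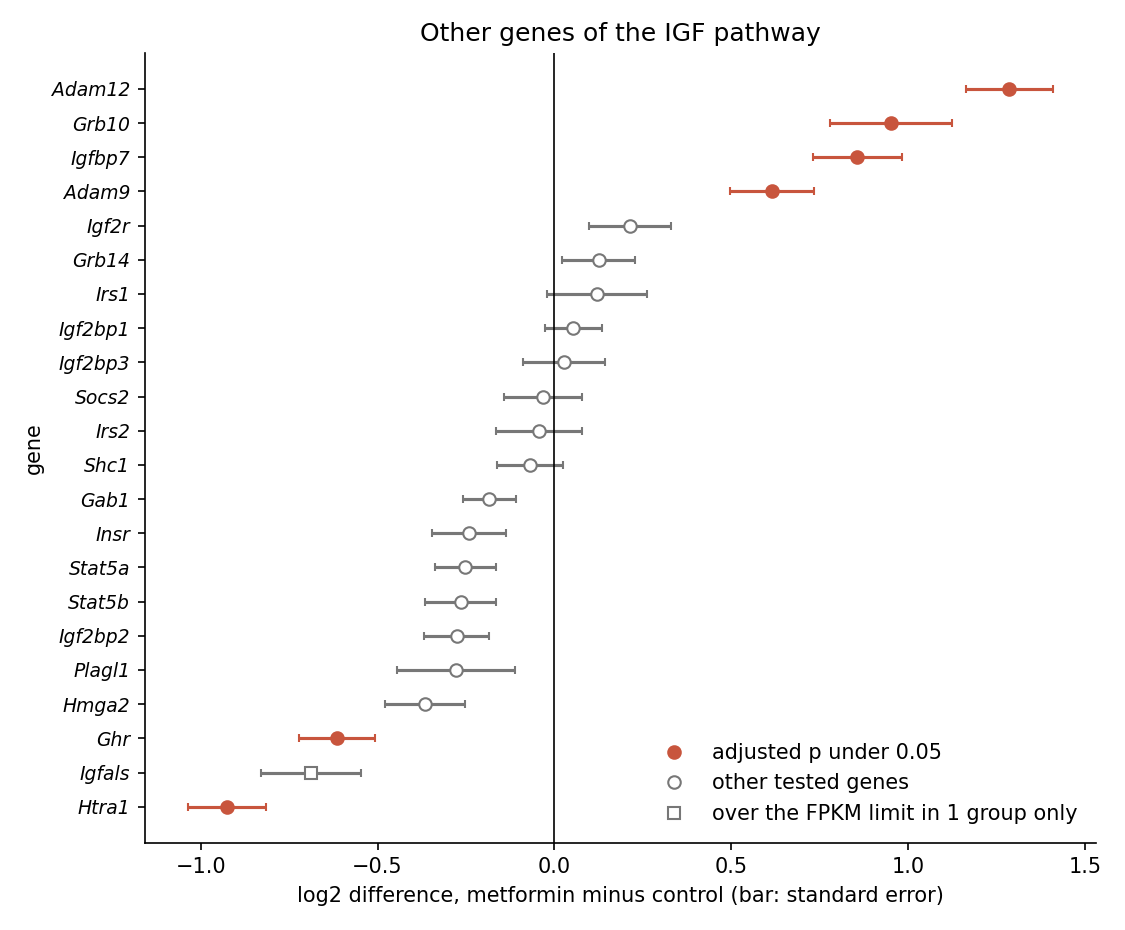
Log2 difference, metformin minus control, of the 22 tested IGF pathway genes outside the axis genes described above, on the log2(FPKM + 1) scale, with bars of 1 standard error, filled points for an adjusted p under 0.05 and a square for Igfals, which passed the limit through the controls alone. The 4 higher genes run from 0.62 (Adam9) to 1.29 (Adam12) and the 2 lower ones are at -0.93 (Htra1) and -0.62 (Ghr), and the open circles lie between -0.37 and 0.21.

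Proteases that cut IGF binding proteins moved in both directions. Adam12, a membrane metalloproteinase that can cut IGFBP3 and IGFBP5, had 2.71, 2.07 and 1.92 FPKM in the control libraries and 6.61, 7.67 and 6.30 FPKM in the metformin libraries. It rose by 1.29 on the log2 scale (SE 0.12, adjusted p = 0.000692 by limma), or by 1.39 without the first control library, and was called with any library left out. Transcripts near-identical to those of Adam12 belong to CT030642.2, which has no values of its own in these data. A130023I24Rik, Gm19514 and Gm23631 overlap Adam12 on the same strand. How reads shared with any of these were counted is not given in the sources used here. Adam9, a related metalloproteinase, had 38.7, 31.7 and 29.1 FPKM in the controls and 49.7, 52.9 and 50.4 FPKM with metformin. It rose by 0.62 (SE 0.12, adjusted p = 0.0119 by limma), or by 0.73 without the first control library, and the adjusted p was 0.0539, 0.0636 and 0.0556 by limma without metformin library 1, 2 and 3, within a range of 0.000292 to 0.0636 over all alternatives. Htra1, a secreted serine protease that cuts IGFBP5 among other matrix proteins, had 80.0, 98.7 and 81.9 FPKM in the controls and 43.7, 48.0 and 43.6 FPKM with metformin. It fell by 0.93 (SE 0.11, adjusted p = 0.00174 by limma), or by 0.98 without the first control library, and was called also with any library left out. Genes on the opposite strand overlap Htra1 (Fgfr2) and Igfbp7 (Polr2b and Gm34648), so reads of these pairs may be shared.

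Igfbp7, a binding protein-related gene whose product binds IGFs weakly, had 107.9, 134.7 and 102.5 FPKM in the control libraries and 212.9, 213.9 and 196.6 FPKM in the metformin libraries. It rose by 0.86 (SE 0.12, adjusted p = 0.00415 by limma), or by 0.82 without the first control library, while Igfbp4, Igfbp5 and Igfbp6 were lower. Grb10, an adaptor that binds the activated insulin and IGF1 receptors and dampens their signal, had 25.7, 17.7 and 15.9 FPKM in the controls and 40.0, 37.9 and 37.3 FPKM with metformin. It rose by 0.95 (SE 0.17, adjusted p = 0.00945 by limma), or by 1.15 without the first control library. Ghr, the growth hormone receptor, had 21.3, 18.1 and 16.9 FPKM in the controls and 12.0, 11.0 and 12.5 FPKM with metformin. It fell by 0.62 (SE 0.11, adjusted p = 0.00856 by limma), or by 0.53 without the first control library, with an adjusted p of 0.0501 by limma without metformin library 2 and a range of 0.000576 to 0.0501 over all alternatives.

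Igfals, whose product joins IGF and IGFBP3 in a circulating complex, was at low levels of 0.597, 0.836 and 1.18 FPKM in the controls and 0.119, 0.217 and 0.122 FPKM with metformin, from 23 to 49 and 5 to 10 reads. All 3 metformin libraries were below all 3 controls, and the ratio of means was 5.70 of control over metformin. The log2 difference was -0.69 (SE 0.14), or -0.80 without the first control library, and at this low level it depended on the scale, with -1.92 at a pseudocount of 0.1 and -2.42 by voom. The 15 other tested genes had log2 differences of -0.37 to 0.21 and adjusted p-values of 0.0613 to 0.892 by limma. Among them were the IGF2 receptor, the insulin receptor and the insulin receptor substrates. Some of the 15 were called under an alternative. The IGF2 receptor gene was at 0.29 without the first control library (adjusted p = 0.0488 by limma). The insulin receptor gene was at -0.32 after the GC correction (adjusted p = 0.0224 by limma). Irs1 and Irs2 were called under no alternative.

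The known inhibitors of the pappalysins were almost without reads. The stanniocalcins, which bind and block PAPP-A and PAPP-A2, had 0 reads in the controls and 1, 2 and 3 reads with metformin for Stc1, and 11, 8 and 4 and then 3, 2 and 2 reads for Stc2. A gene on the opposite strand with near-identical transcripts, Gm41192, overlaps Stc1 and had 0 reads in all 6 libraries, and how reads in both genes were counted is not given in the sources used here. Prg2, the source of the proform of eosinophil major basic protein, an inhibitor of PAPP-A, had 1 read in metformin library 3 and 0 in the others. With H19, Insrr and the 5 genes at 0 reads in every library (Igfbp1, Igfbpl1, Ins1, Ins2 and Adam28), these made up the 10 genes under the limit, and none reached more than 0.376 FPKM in any library.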

How the data were processed

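The authors deposited 1 table of gene values for the 6 samples (RNA extracted with Trizol, TruSeq libraries), with no named unit. Its values are FPKM as the authors deposited them: multiplied by gene length, 100% of the nonzero values were whole steps of a size set by the sample (tolerance 0.01 reads), which gave the reads. The submitters' processing notes name Bowtie 0.12.2 and the builds mm8 and mm9, while the table's coordinates match GENCODE M21 (GRCm38) for 53499 of 54532 genes; the coordinates given are the table's. The counting tool is not given in the sources used here, and the authors tested with DESeq2. The 6 value columns were matched to samples by name, with 0 other columns. The labels do not say that replicates were separate cultures, although the methods call them biological. The p-values set the group difference against the spread between these samples, whatever its source.

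limma 3.58.1 (R 4.3.3) with an intensity trend was fitted to log2(FPKM + 1) over the 12681 genes whose mean reached 0.5 FPKM, by group only. Benjamini-Hochberg adjustment was used at 0.05. The fit was also run on simulated reads with the same spread in every library and no library standing apart. Such a run cannot show the error rate in these data. A count of 3 reads is the floor, which covers counting error only. Alternatives were another pseudocount, other filters, scaling by total reads, voom on the recovered reads, a replicate block, each library left out and, added after seeing the data, a GC correction. Near-identical transcripts were sought with BLAST+ 2.17.0.

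The members and gene lists were chosen with earlier results of these data known. Named genes are the 10 members and, of 32 other pathway genes, those with an adjusted p under 0.05, the pappalysin inhibitors and the genes under the filter.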

Additional observations from a re-analysis of the deposited data

How the results depend on the processing

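Over all tested genes, leaving out 1 library moved the number of higher genes between 938 and 2969 and of lower genes between 495 and 2590, the highest numbers being those without control library 1 (2969 and 2590) and the lowest those without metformin library 1 (938 and 495). Without metformin library 2 or 3 they were 943 and 518 or 985 and 533, and without control library 2 the lower genes were 741. The number of lower genes, 1177 with all libraries, was 698 with a replicate block, 2433 with a GC correction and 1888 with a GC correction and replicate block, and the cause was not tested. No label ties samples that share a number, and the deviations of such samples correlated at -0.053, 0.00027 and -0.055 across genes. The numbers were therefore not taken as pairs. The replicate block left the listed pathway genes at 4 higher and 3 lower, Igfals among the lower. With Igfals counted, the number of lower listed genes was 3, and it was 5 with voom, 8 with a GC correction, 5 with a GC correction and replicate block and 2 to 6 with 1 library left out, the 6 being without control library 1. Igfals was among the lower genes with all libraries, in the voom and GC-corrected fits and without control library 1. The log2 differences of 4 listed genes that were not called changed sign. With 1 library left out they ranged from -0.0021 to 0.27 for Irs1, from -0.15 to 0.070 for Irs2, from -0.046 to 0.13 for Igf2bp3 and from -0.13 to 0.043 for Socs2, and Igf2bp3 was at -0.043 with the GC correction, with and without the block. Of the listed genes' values under the alternatives, Igfals included, 278 of 307 kept their direction and side of the threshold. Of the rest, 15 became called, 7 were no longer called and 7 changed sign. For the axis genes, 59 of 70 log2 differences moved by less than 1 SD, the gene's SD within groups on the log2 scale. The filters and the block, which cannot move a difference in this balanced design, were left aside. The 70 include the fits with 1 library left out, which in groups of 3 cannot move a difference by 1 SD. The count is therefore no measure of stability. All 11 that moved by 1 SD or more were under another pseudocount, scaling by total reads, voom or the GC correction. Depth limits Igfbp2, Igfals and the genes with few or no reads.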
